A study of Mus musculus with 24 samples.

Results

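Retinas of C57Bl/6 mouse pups after 120 hours of hyperoxia were compared with retinas of pups kept in room air, both at postnatal day 12. The comparison rests on the 6 of the 24 arrays of the series whose titles name day 12, 3 labelled hyperoxia and 3 labelled normoxia, and on every probe set other than the array's own controls. The other 18 arrays hold room air and hyperoxia groups of 3 at days 7, 8 and 10, after 12, 24 and 72 hours of exposure. They were used for the shared estimate of spread and for setting the day 12 differences beside those of shorter exposures. Age and exposure time change together across the series and cannot be told apart. The labels name no drug and no genetic change in any group. The labels used here do not give the oxygen concentration, the number of animals behind an array, or whether replicates were separate animals, so each p-value reflects the scatter of these arrays alone, and that scatter may be technical.

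Growth of the superficial vessels of the mouse retina is under way in the first postnatal week, before the deeper layers form. Astrocytes and neurons short of oxygen release vascular endothelial growth factor, made from the gene Vegfa, and endothelial cells follow it. The transcription factor HIF drives Vegfa and genes of glycolysis when oxygen is low. In air, prolyl hydroxylases mark HIF for destruction. Raised oxygen in this window lowers the vascular growth signal and leads to loss and arrest of immature capillaries, which is the first phase of the oxygen-induced retinopathy model. At day 12 that model reaches the end of its oxygen phase.

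The 6 libraries carried the genes of a retina. All 24 rod photoreceptor genes with a probe set passed the filter on low values, and the rod transducin Gnat1 had a mean log2 normalized intensity of 14.80 in both groups. Deposited array medians lay between 630.6 and 679.7 under hyperoxia and between 594.2 and 624.9 in room air, before quantile normalization. The log2 ratio of 3′ to 5′ control probe sets of Gapdh, a sign of RNA integrity, was -0.38 to -0.31 under hyperoxia and -0.35 to -0.27 in room air. Genes of the lens, a tissue that can remain attached to a dissected retina, varied widely in both groups: their mean level ran from 8.23 to 13.94 on the hyperoxia arrays and from 7.51 to 14.06 on the room air arrays. The mean level of pigment epithelium genes ran from 10.15 to 11.38 and from 10.29 to 11.03. All 15 tested lens genes had a higher mean under hyperoxia, with a median difference of 1.01, yet for 0 of them did the arrays of the groups separate. Hyperoxia replicate 2 had the lowest mean correlation with the other day 12 arrays. Counts without it are given for the endothelial, pericyte, HIF target, glycolysis and cone genes.

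Across 15838 tested probe sets, 2 fell after 120 hours of hyperoxia and 0 rose at an adjusted p under 0.05 in limma, which is 0.0126% of those tested. At an unadjusted p under 0.05 there were 1383 (8.73%), of which 805 probe sets were lower (5.08%) and 578 were higher (3.65%). Without room air replicate 1 these shares were 2.87% and 3.1%, and without hyperoxia replicate 2 they were 3.79% and 2.71%. With the deposited scaling the balance turned, with 3.76% lower and 5.03% higher. The median difference over all of them, as log2 hyperoxia minus room air, was -0.0034, with 50.8% below 0 and 49.2% above. The middle 90% of differences lay between -0.39 and 0.39, so most genes differed by little.

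The first of these 2 genes was Naalad2, which encodes a peptidase of the family that splits the neuropeptide N-acetylaspartylglutamate. Its log2 intensity was 7.76, 7.10 and 7.10 on the hyperoxia arrays and 9.10, 8.61 and 8.36 on the room air arrays. Every hyperoxia array was below every room air array, and 2 of them were at the floor of 7.10 set for dim probe sets. The difference was -1.37 ± 0.21 (SE, n = 3 per group, adjusted p = 0.0226 in limma), or 2.58-fold lower. Its size is understated because of the floor, which also narrows the spread of the hyperoxia arrays. With the floor at the 10th percentile the difference was -1.77 ± 0.29 and did not pass (adjusted p = 0.053 in limma). The deposited intensities of the probe set were 224, 70.6 and 122 under hyperoxia and 521, 384 and 316 in room air. Naalad2 was also lower at day 7 (-0.97) and day 10 (-0.84), with a value of -0.04 at day 8.

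The second was Sema4b, a membrane-bound semaphorin of the guidance molecules read by plexin receptors. Its log2 intensity was 7.77, 7.64 and 7.61 under hyperoxia and 8.84, 8.79 and 8.39 in room air. The groups did not overlap, and the hyperoxia arrays lay within a narrow band. The difference was -1.0 ± 0.15 (SE, n = 3 per group; adjusted p = 0.0226 in limma), or 2.00-fold lower. At the shorter exposures Sema4b stood near 0 at day 7 (0.04) and day 8 (-0.03), and it was lower at day 10 (-0.33). The day 12 difference was below the mean of those 3 by 0.89 ± 0.18, which did not pass over all probe sets (adjusted p = 0.231 in limma).

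Both calls depended on single arrays and on settings. Without hyperoxia replicate 2, hyperoxia replicate 3 or room air replicate 2, 0 probe sets passed. Without room air replicate 1, the 1 probe set that passed was Siglec1, which was higher. Without hyperoxia replicate 1 there were 6 calls, and without room air replicate 3 there were 3, and both genes were among them each time. With the deposited scaling in place of quantile normalization 0 passed. With the replicate number as a block, 4 passed, all lower: Naalad2, Sema4b, the endothelial receptor Cd93 (-0.96, adjusted p = 0.0472 in limma) and Dcaf4. With the number as a block within each day only Naalad2 passed.

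**Figure D1:**
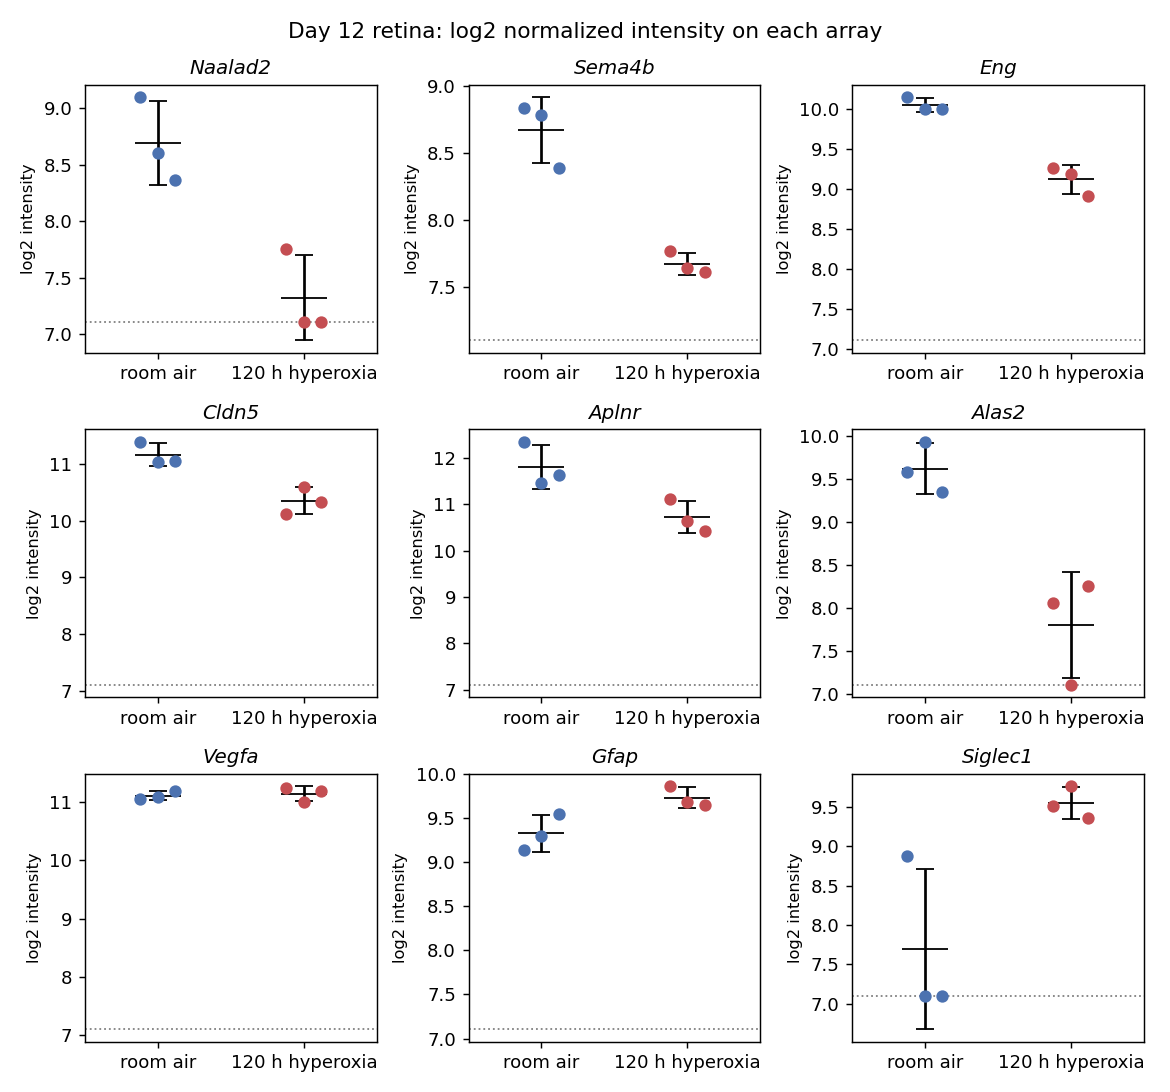
Log2 normalized intensity (vertical axis, 1 scale per panel) of 9 genes on the 3 room air arrays (blue) and the 3 arrays after 120 hours of hyperoxia (red), with the mean and SD as bars and the floor as a dotted line. Naalad2, Sema4b, Eng, Cldn5, Aplnr and Alas2 are lower on every hyperoxia array, Vegfa overlaps, and Gfap and Siglec1 are higher on every hyperoxia array.

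Genes of endothelial cells, the lining of the vessels, were the list with the widest shift downward among those with more than 2 tested genes. Of 37 listed genes 31 had a probe set and 25 passed the filter on low values. None of the 25 passed at an adjusted p under 0.05. At an unadjusted p under 0.05, 10 of them were lower and 1 was higher, where 5.08% and 3.65% of all probe sets were. The arrays of the groups separated for 13 lower and 2 higher genes, where 6.69% of all probe sets separated downward and 4.99% upward. The median difference of the list was -0.43. In a whole retina, fewer endothelial cells and less of these RNAs per cell cannot be told apart. With 1 array left out at a time the median ran from -0.47 to -0.33. The number lower at an unadjusted p under 0.05 ran from 7 to 11, and it was 11 without hyperoxia replicate 2. With the deposited scaling 7 were lower and 1 was higher, where 3.76% and 5.03% of all probe sets were, and the median was -0.34.

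Eng, endoglin, is a co-receptor for ligands of the transforming growth factor family on endothelium. Its log2 intensity was 9.25, 9.18 and 8.91 under hyperoxia and 10.14, 10.00 and 10.00 in room air. All 3 hyperoxia arrays were lower, with a gap between the groups that was wider than the spread within either. The difference was -0.93 ± 0.22 (adjusted p = 0.302 in limma). In room air the mean of Eng went from 9.25 at day 7 to 9.49 at day 8, 10.05 at day 10 and 10.05 at day 12. Under hyperoxia it was 9.14, 8.98, 9.07 and 9.11 at the same ages. The level in room air thus climbed between days 7 and 10 (0.81 ± 0.22, adjusted p = 0.0355 in limma), while the level under hyperoxia lay between 8.98 and 9.14.

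Cldn5, claudin 5, forms the tight junctions of the blood-retina barrier. Its log2 intensity was 10.12, 10.60 and 10.33 under hyperoxia and 11.40, 11.04 and 11.06 in room air. The arrays did not overlap, and the difference was -0.81 ± 0.19. Tm4sf1, a tetraspanin-like membrane protein of endothelial cells, read 8.70, 9.03 and 8.94 against 10.07, 9.73 and 9.76. Its difference was -0.96 ± 0.24, compared with -1.61 at day 10. Neither gene passed over all probe sets (adjusted p = 0.302 in limma for each).

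Aplnr, the apelin receptor, is raised on sprouting vessels. It read 11.10, 10.63 and 10.42 under hyperoxia and 12.35, 11.45 and 11.62 in room air. Room air replicate 1 was the highest array, and the other room air arrays also lay above all hyperoxia arrays. The difference was -1.09 ± 0.30, and a second Aplnr probe set gave -0.53 ± 0.21 with overlapping arrays. The endothelial transcription factor Sox18 stood at -0.98 ± 0.26 and Cd93 at -0.96 ± 0.28. Ramp2, the partner of the adrenomedullin receptor, stood at -0.58 ± 0.17, and Nos3, the endothelial nitric oxide synthase, at -0.43 ± 0.18. Cd34 was at -0.45 ± 0.19, and Slc38a5, an amino acid transporter of retinal endothelium, at -0.65 ± 0.30. The arrays of the groups did not overlap for any of these.

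The receptors for the main vessel growth factors were nearer 0. The vascular endothelial growth factor receptor Kdr differed by -0.02, with a 95% interval from -0.36 to 0.32. The other receptor, Flt1, differed by -0.10 (interval -0.89 to 0.68), and the angiopoietin receptor Tek by -0.07 (interval -0.48 to 0.34). The intervals leave room for differences as large as those of Nos3 for Flt1 and Tek. The junction cadherin Cdh5 was at -0.29 ± 0.18 and the adhesion molecule Pecam1 at -0.52 ± 0.26, and neither was past an unadjusted p of 0.05. The 3 probe sets of Egfl7, a protein secreted by endothelium, disagreed, at 0.15, -0.35 and -0.90.

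Of the 25 tested endothelial genes 4 went the other way, and the arrays separated upward for 2. The largest of these differences was that of Slco1a4, the 1 gene counted above as higher by unadjusted p. Slco1a4, an organic anion transporter of brain and retinal barrier endothelium, read 10.13, 10.07 and 9.95 under hyperoxia and 9.53, 9.48 and 9.46 in room air. All hyperoxia arrays were higher, and the difference was 0.56 ± 0.15 (adjusted p = 0.347 in limma). At days 7, 8 and 10 it had been -0.12, -0.41 and 0.01. The day 12 difference lay 0.73 ± 0.18 above the mean of the shorter exposures (adjusted p = 0.663 in limma).

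Pericytes and smooth muscle cells wrap the capillaries and arterioles. Of 14 listed genes 9 were tested, with a median of -0.35, and at an unadjusted p under 0.05, 3 were lower and 1 was higher, where 5.08% and 3.65% of all probe sets were. Without hyperoxia replicate 2 these counts were 2 and 0, and with the deposited scaling they were 2 and 1, with a median of -0.21. Rgs5, a regulator of G protein signalling abundant in pericytes, read 12.54, 12.11 and 12.34 under hyperoxia and 12.71, 12.77 and 12.93 in room air, a difference of -0.47 ± 0.15. Its 3 other probe sets were also below 0, from -0.81 to -0.53. Pdgfrb, the receptor through which endothelial platelet-derived growth factor recruits pericytes, was at -0.70 ± 0.27, and the proteoglycan Cspg4 at -0.35 ± 0.17. The intermediate filament gene Des was at 0.41 ± 0.18 in the opposite direction. The median of the 12 tested basement membrane genes was -0.12, with Col4a1 at -0.51, Fn1 at -0.40, Hspg2 at 0.43 and Lama5 at 0.91. The 14 tested tip cell genes, which mark the leading cell of a sprout, had a median of -0.15, and the 22 tested angiogenic ligands and receptors a median of 0.00. Among the latter, the hepatocyte growth factor gene Hgf was the 1 gene past an unadjusted p of 0.05, at 0.76 ± 0.32.

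Alas2, the first enzyme of heme synthesis in red cell precursors, had the largest lower value of the probe sets named by rule. It read 8.05, 7.10 and 8.26 under hyperoxia and 9.58, 9.93 and 9.34 in room air. The groups were separated by more than 1 log2 unit, and hyperoxia replicate 2 was at the floor. The difference was -1.81 ± 0.38 (unadjusted p = 0.000138, adjusted p = 0.302 in limma). The corresponding values were -1.07 at day 7, -0.16 at day 8 and -1.27 at day 10. Alas2 was the only 1 of 9 listed red cell genes that was tested.

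**Figure D2:**
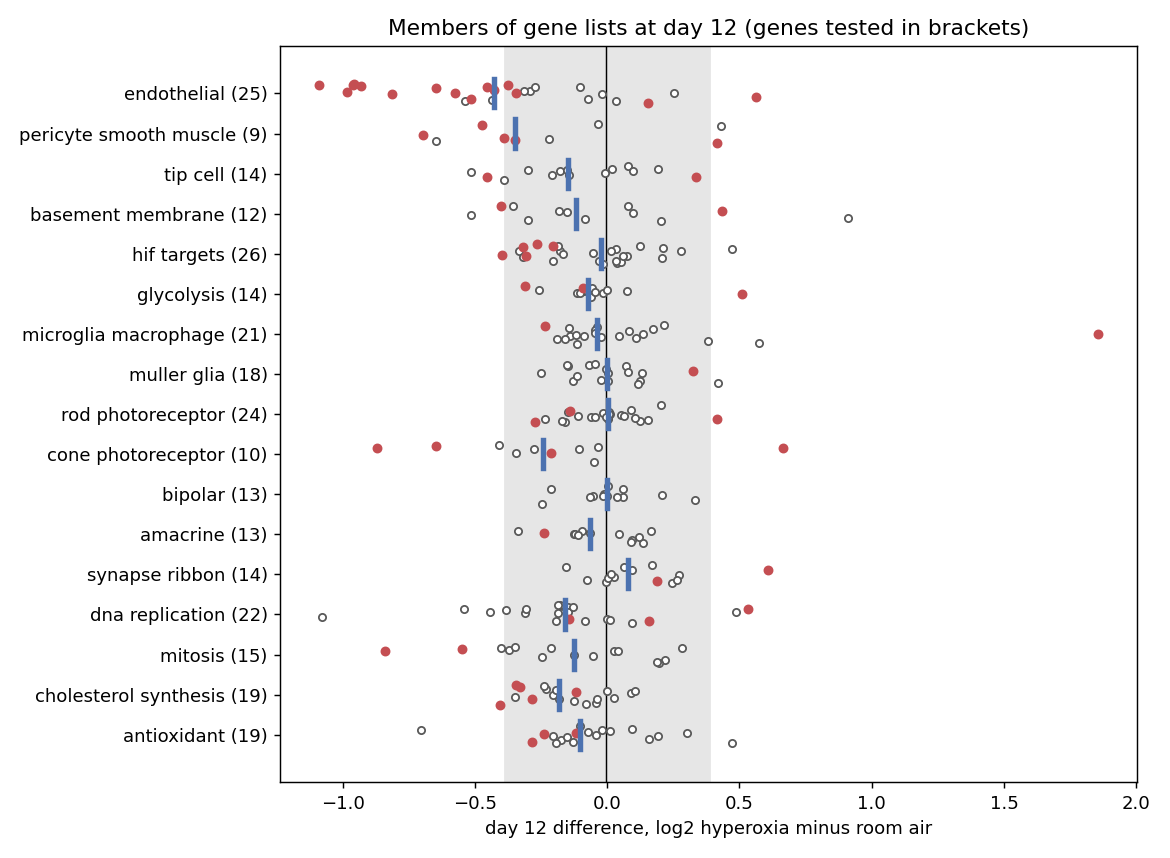
Difference at day 12 (horizontal axis, log2 hyperoxia minus room air) of each tested gene in 17 lists, with 1 probe set per gene. Filled red points are genes whose arrays do not overlap between the groups, blue bars are medians, and the grey band spans the 5th to 95th percentile of all probe sets (-0.39 to 0.39). The endothelial median is -0.43, outside the band, and that of HIF targets is -0.02.

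The promoters of HIF target genes are shown because HIF binds a short core, ACGTG and a variant of it with another first base, GCGTG, and because several of these genes stood closer to room air at day 12 than at the earlier days. The sequences are from RefSeq on the mouse build GRCm38.p6. Both forms were searched on both strands, and a palindrome such as CACGTG counts as a match on each. Of 27 HIF target genes with a promoter in the table, spanning 250 bases before to 50 after the start, 26 held at least 1 match. Of 27025 genes in all, 46.7% did. Among promoters, 32 of the 40 of HIF targets held a match, against 75.0% of the 28 of glycolysis genes, 33.3% of the 24 of endothelial genes and 43.8% of all 32851. A match is a description of letters and not a site of binding. The 180 bases before the start are printed for 5 genes, with the matches in capitals. For each gene the first promoter that held a match was taken, and Pdk1 had 2 promoters in the table. Bnip3, Pdk1 and Slc16a3 stood close to room air or above it at day 12, and P4ha1 and Pfkp were lower.
Bnip3, chr7:138909507-138909686, minus strand: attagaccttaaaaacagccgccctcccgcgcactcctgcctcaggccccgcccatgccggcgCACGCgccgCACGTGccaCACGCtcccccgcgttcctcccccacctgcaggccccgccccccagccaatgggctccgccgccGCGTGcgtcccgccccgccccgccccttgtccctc
Pdk1, chr2:71873044-71873223, plus strand: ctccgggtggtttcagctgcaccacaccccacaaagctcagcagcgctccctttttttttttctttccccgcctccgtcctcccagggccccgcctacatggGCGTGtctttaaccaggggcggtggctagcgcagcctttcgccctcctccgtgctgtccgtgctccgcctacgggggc
Slc16a3, chr11:120948887-120949066, plus strand: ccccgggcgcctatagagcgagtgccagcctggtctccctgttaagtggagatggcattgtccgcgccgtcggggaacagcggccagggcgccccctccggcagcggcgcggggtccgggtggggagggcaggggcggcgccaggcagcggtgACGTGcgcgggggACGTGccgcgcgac
P4ha1, chr10:59323116-59323295, plus strand: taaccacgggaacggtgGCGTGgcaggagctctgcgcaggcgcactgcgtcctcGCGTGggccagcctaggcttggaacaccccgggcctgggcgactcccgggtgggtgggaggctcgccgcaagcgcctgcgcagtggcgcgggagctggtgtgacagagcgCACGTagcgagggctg
Pfkp, chr13:6648772-6648951, minus strand: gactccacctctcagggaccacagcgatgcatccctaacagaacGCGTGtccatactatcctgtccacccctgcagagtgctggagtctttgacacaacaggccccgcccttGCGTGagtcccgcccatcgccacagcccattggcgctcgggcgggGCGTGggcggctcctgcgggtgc

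Vegfa did not differ detectably at day 12. Its brighter probe set read 11.24, 10.99 and 11.19 under hyperoxia and 11.04, 11.08 and 11.19 in room air, and the arrays overlapped. The difference was 0.04 ± 0.13, with a 95% interval from -0.23 to 0.30. In room air the mean was 11.16, 11.04, 11.08 and 11.10 at days 7, 8, 10 and 12. Under hyperoxia it was 10.28, 10.00, 10.57 and 11.14, so the gap closed from the hyperoxia side. The day 12 difference lay 0.85 ± 0.15 above the mean of the 3 shorter exposures (unadjusted p = 1.3e-05), which was the lowest p of a difference between exposures but did not pass over all probe sets (adjusted p = 0.209 in limma). Vegfa was named because earlier results of these data showed it lower at days 7 to 10. Part of a difference above 0 can follow from that choice. A second Vegfa probe set gave 0.08 ± 0.22.

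Bnip3, Pdk1 and Slc16a3 showed a course like that of Vegfa. Bnip3, a mitochondrial protein that promotes mitophagy, read 12.68, 12.93 and 12.88 against 12.97, 12.84 and 12.84, a difference of -0.05 ± 0.12. Pdk1, which blocks entry of pyruvate into the mitochondria, was at -0.00 ± 0.18 and, by a second probe set, at 0.06 ± 0.14. Slc16a3, the lactate exporter, was at 0.21 ± 0.18, with an interval from -0.18 to 0.59. For all 3 the arrays of the groups overlapped. The differences from the mean of the shorter exposures were 0.77 ± 0.14 for Bnip3, 0.99 ± 0.21 for Pdk1 and 1.03 ± 0.21 for Slc16a3 (adjusted p = 0.216, 0.234 and 0.234 in limma). Like Vegfa, these 3 genes were named for being lower at the shorter exposures, so part of these differences can follow from that choice. With the replicate number as a block, Slc16a3 was the 1 probe set past the threshold. For Slc16a3 part of the closing came from room air, where its mean was 10.42 at day 7 and 9.88 at day 12, while under hyperoxia it was 9.36 and 10.09.

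For 2 metabolic enzymes the probe sets of a gene differed. Ak4, a mitochondrial adenylate kinase, was at 0.01 ± 0.15 by its brighter probe set and at -0.46 ± 0.17 by the other. Pfkl, the liver type of phosphofructokinase, was at -0.11 ± 0.11 and at -0.33 ± 0.13.

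Other HIF targets were lower at day 12. Of 35 listed genes 26 were tested, with a median of -0.02, against -0.28, -0.35 and -0.23 at days 7, 8 and 10. At an unadjusted p under 0.05, 5 were lower and 1 was higher, where 5.08% and 3.65% of all probe sets were, and none passed after adjustment. The count of lower genes ran from 2, without room air replicate 2, to 6, without hyperoxia replicate 2, and it was 3 without hyperoxia replicate 1 or hyperoxia replicate 3. The count of higher genes was 0 without hyperoxia replicate 1, hyperoxia replicate 2 or room air replicate 1. Egln1, the main oxygen-sensing prolyl hydroxylase and itself a HIF target, read 11.87, 11.75 and 11.73 under hyperoxia and 12.12, 12.22 and 11.97 in room air. Its difference was -0.32 ± 0.11, after -0.26, -0.36 and -0.40 at days 7, 8 and 10. A second Egln1 probe set gave -0.15 ± 0.20 with overlapping arrays. The collagen-modifying enzymes P4ha1 and Plod2 were at -0.31 ± 0.13 and -0.40 ± 0.11. Plod2 read 9.58, 9.54 and 9.55 against 9.91, 10.09 and 9.86, with no overlap, and its second probe set gave -0.43 ± 0.13. The mitochondrial protein gene Fam162a was at -0.21 ± 0.09 and the histone demethylase Kdm3a at -0.26 ± 0.12. Cited2, a HIF-induced inhibitor of HIF activity, was the gene that was higher, at 0.28 ± 0.12.

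Counted over the list, the difference between day 12 and the mean of the shorter exposures was above 0 at an unadjusted p under 0.05 for 7 of the 26 and below 0 for 1, where 2.17% and 2.8% of all probe sets were. None of the 15838 probe sets passed this test after adjustment, and 787 (4.97%) were past an unadjusted p of 0.05. The HIF target list was chosen with earlier results of these data known. In glycolysis 14 genes were tested, with a median of -0.07. Of these, 12 were below 0 and 2 above, where 50.8% and 49.2% of all probe sets were. At an unadjusted p under 0.05, 1 was lower and 1 was higher, where 5.08% and 3.65% of all probe sets were. Without hyperoxia replicate 2 these counts were 0 and 1. Pfkp, the platelet type of phosphofructokinase, was at -0.31 ± 0.14. Ldhb, the lactate dehydrogenase subunit that favours oxidation of lactate, read 12.80, 12.92 and 12.89 under hyperoxia and 12.39, 12.37 and 12.33 in room air. The tight groups of Ldhb did not overlap, and its difference was 0.51 ± 0.16 (adjusted p = 0.400 in limma). Its 3 other probe sets gave 0.56, 0.06 and -0.04, so they did not give 1 answer.

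**Figure D3:**
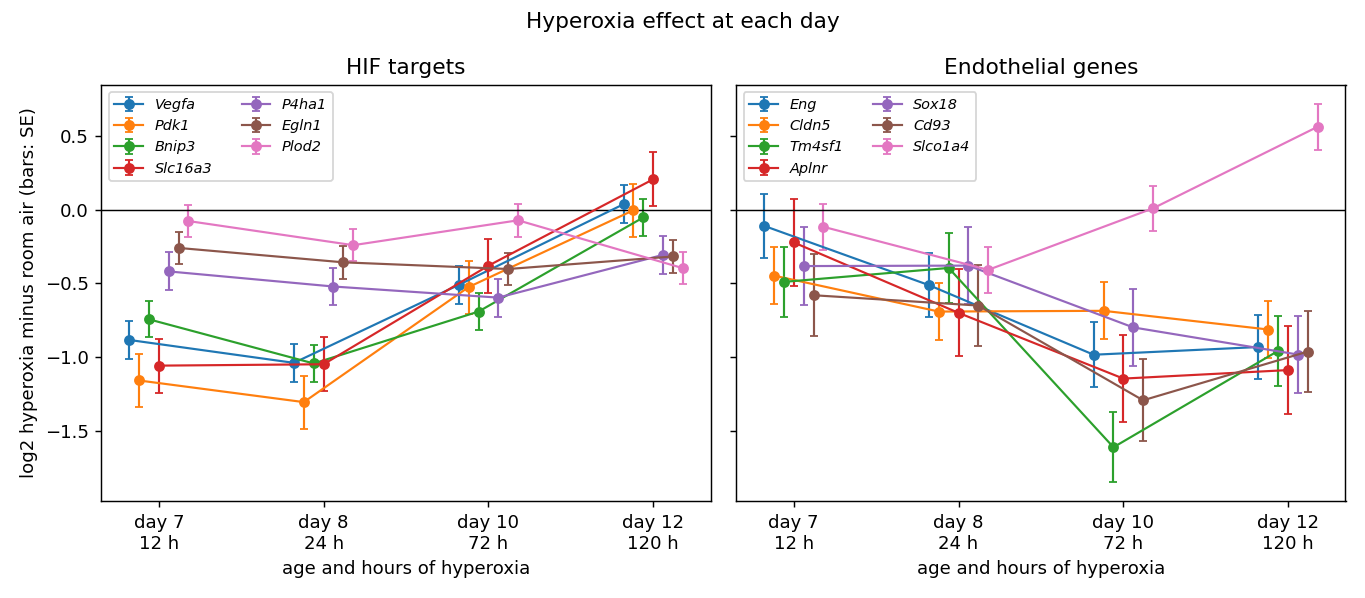
Difference between hyperoxia and room air (vertical axis, log2, with SE) at days 7, 8, 10 and 12, after 12, 24, 72 and 120 hours of hyperoxia, for 7 HIF targets (left) and 7 endothelial genes (right). Vegfa, Pdk1, Bnip3 and Slc16a3 lie between -0.05 and 0.21 at day 12, Egln1, P4ha1 and Plod2 between -0.40 and -0.31, and all plotted endothelial genes but Slco1a4 between -1.09 and -0.81.

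Glia and immune cells gave few differences. Gfap, the intermediate filament of astrocytes and of stressed Müller glia, read 9.86, 9.69 and 9.65 under hyperoxia and 9.14, 9.29 and 9.55 in room air. All hyperoxia arrays were higher, by 0.41 ± 0.17 (adjusted p = 0.522 in limma), and by 0.73 ± 0.24 on a second probe set. In its lists, 5 of 7 tested astrocyte genes and 5 of 8 tested reactive gliosis genes were below 0, with medians of -0.03 for each, and the gliosis gene Cebpd, a transcription factor, was at -0.37 ± 0.16. The 18 tested Müller glia genes had a median of 0.00 and the 21 tested microglia and macrophage genes a median of -0.04. Siglec1, a sialic acid receptor of macrophages, read 9.51, 9.77 and 9.36 under hyperoxia and 8.87, 7.10 and 7.10 in room air. Its difference of 1.85 ± 0.36 was the largest upward one named (adjusted p = 0.212 in limma), and 2 room air arrays were at the floor. Aif1, a general microglia marker, was at 0.57 ± 0.19 with overlapping arrays. Cxcl13, a chemokine that attracts B cells, read 10.25, 10.37 and 9.95 against 9.16, 9.17 and 9.47, a difference of 0.93 ± 0.25, with 0.80 at day 10. Mag, a myelin glycoprotein, was at 0.75 ± 0.21, the largest value among the 5 tested myelin genes. Their median was 0.20, with 3 above 0 and 2 below.

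Rod photoreceptors, which make up most cells of the mouse retina, had a median of 0.00 over 24 tested genes. Guca1a, an activator of retinal guanylate cyclase, was lower at -0.27 ± 0.11, and Rgs9, which speeds the shutdown of transducin, was higher at 0.41 ± 0.16. Cone genes had a median of -0.24 over 10 tested genes, and at an unadjusted p under 0.05, 4 were lower and 1 was higher, where 5.08% and 3.65% of all probe sets were. The cone arrestin Arr3 read 11.16, 9.97 and 11.04 under hyperoxia and 11.53, 11.21 and 11.38 in room air. Hyperoxia replicate 2 was far below the others, and the difference was -0.65 ± 0.29. The count of lower cone genes was 1 without hyperoxia replicate 2, hyperoxia replicate 3, room air replicate 1 or room air replicate 2, and 2 without hyperoxia replicate 1 or room air replicate 3. Rxrg, a nuclear receptor that patterns cone opsins, was at -0.87 ± 0.40, near the floor under hyperoxia. Cngb3, a subunit of the cone channel, was at -0.28 ± 0.12 and Gnat2, the cone transducin, at -0.21 ± 0.10. Thrb, the thyroid hormone receptor of cones, was at 0.66 ± 0.30.

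Inner neurons stayed near the centre of all genes. The median was 0.00 for 13 bipolar cell genes, -0.07 for 13 amacrine cell genes and 0.08 for 14 synapse and ribbon genes. Dlg4, the postsynaptic scaffold PSD-95, which in the retina also lies in photoreceptor terminals, read 13.23, 12.63 and 12.79 under hyperoxia and 12.37, 12.06 and 12.40 in room air. The arrays did not overlap, and the difference was 0.61 ± 0.22, with 0.19 and 0.32 on its other probe sets. Rbpms, a marker of ganglion cells, was at 0.56 ± 0.20 on the brightest of its probe sets and between 0.00 and 0.03 on the others. Of the 14 tested ganglion cell genes 11 were below 0, with a median of -0.05. The arrays separated downward for 3 and upward for Rbpms alone, where 6.69% and 4.99% of all probe sets did. At an unadjusted p under 0.05, 0 ganglion cell genes were lower and 1 was higher. The 23 tested semaphorins and plexins had a median of -0.02. At an unadjusted p under 0.05, 3 of them were lower and 3 higher, where 5.08% and 3.65% of all probe sets were. The lower ones were Sema4b, Sema3a (-0.24) and the receptor Plxnd1 (-0.50), and the higher ones Sema4g (0.51), Sema6a (0.45) and Sema6c (0.49).

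Lists of cell division and of cholesterol synthesis had medians below 0. The median was -0.16 for 22 DNA replication genes. It was -0.10 without room air replicate 1 and -0.08 with the deposited scaling. At an unadjusted p under 0.05, 3 were lower, namely the helicase subunit Mcm6 (-1.08), the ribonucleotide reductase subunit Rrm2 (-0.54) and the clamp loader subunit Rfc3 (-0.44). Another clamp loader subunit, Rfc4, was higher (0.49). Over all probe sets 5.08% were lower and 3.65% higher. The arrays of the groups overlapped for Rrm2, Rfc3 and Rfc4. With the deposited scaling 1 gene of the list was lower and 2 were higher. With the filter at the 50th percentile, 0 of 12 tested genes were lower or higher. The arrays separated downward for 1 gene of the list and upward for 2, where 6.69% and 4.99% of all probe sets did. The median was -0.12 for 15 mitosis genes, with the kinase Cdk1 at -0.84 ± 0.27 and 2 of its hyperoxia arrays at the floor. Of 19 cholesterol synthesis genes, with a median of -0.18, 15 were below 0 and the arrays separated downward for 5, where 6.69% of all probe sets did. At an unadjusted p under 0.05, 2 were lower, where 5.08% of all probe sets were. The median was -0.12 without hyperoxia replicate 2 or room air replicate 2 and -0.11 with the deposited scaling. Mvk, mevalonate kinase, read 9.86, 9.82 and 10.04 under hyperoxia and 10.28, 10.48 and 10.18 in room air, a difference of -0.40 ± 0.15. A dimmer Mvk probe set gave -1.41 ± 0.38 with 2 hyperoxia arrays at the floor. Fdps, farnesyl diphosphate synthase, was at -0.33 ± 0.15. Among 19 antioxidant genes the median was -0.10, and the peroxide-removing enzymes Gpx1 and Prdx3 were at -0.28 ± 0.11 and -0.24 ± 0.11.

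By the rule for the largest differences, 100 genes were eligible upward and 165 downward. Below Siglec1, the named upward genes were Tbx5, Grhl2, Nr5a1, Cd37, Srrm1, Pmf1, Lbx1, Cxcl13, Tubb4b, Ddr1, Slc22a7, Diras1, Knstrn and Stat6, from 1.51 down to 0.77. Tbx5 is a T-box and Nr5a1 a nuclear receptor transcription factor, and both had a room air array at the floor. Diras1, a small GTPase of neurons, was well above the floor on every array. It read 10.43, 10.78 and 10.35 against 9.68, 9.83 and 9.62, a difference of 0.81 ± 0.19, but its other probe sets gave 0.14 and -0.21. Other probe sets of Srrm1, Tubb4b, Ddr1, Stat6, Plec and Rbm39 also gave smaller values or the opposite sign. Besides those described above, the downward genes were Nol12, AU021092, Plec, Cacng2, Kcnj14, Itpkb, Zfp746, Rbm39, Fzd6 and Parp8, from -1.64 to -1.0. Kcnj14, an inward rectifier potassium channel, read 10.10, 10.23 and 10.76 against 10.94, 12.01 and 11.80, a difference of -1.22 ± 0.30. Fzd6, a receptor for Wnt ligands, was at -1.03 ± 0.33 after -1.40 at day 10.

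The day 12 differences were correlated across probe sets with those at day 10. Over the 15838 probe sets, which share the array design and the normalization but no array between the days, Pearson's r of the day 12 difference was 0.50 with day 10, -0.06 with day 7 and -0.11 with day 8. With 1 day 12 array left out, the value with day 10 ran from 0.38 to 0.51. Of the 805 probe sets lower at day 12 at an unadjusted p under 0.05, 91.2% were also lower at day 10, where 50.6% of all probe sets were. At day 7 41.1% of them were lower, against 47.2% of all, and at day 8 45.8%, against 49.0% of all. Of the 578 higher, 81.8% were higher at day 10, where 49.4% of all probe sets were. At day 7 52.9% of them were higher, against 52.8% of all, and at day 8 38.8%, against 51.0% of all. The test of day 12 against day 10 called 0 probe sets in limma, with 367 (2.32%) past an unadjusted p of 0.05. Against day 7 it called 0, with 982 (6.2%), and against day 8 it called 0, with 1247 (7.87%).

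Genes that climb with age in room air tended to be lower under hyperoxia at day 12. From day 7 to day 10 in room air, on arrays that enter the shared estimate of spread but not the day 12 group means, 855 probe sets (5.4%) passed, of which 606 rose (3.83%) and 249 fell (1.57%), at an adjusted p under 0.05 in limma. Of the 606, 77.7% had a lower mean after 120 hours of hyperoxia, against 50.8% of all probe sets, with a median of -0.12. Of them 69 were lower (11.4%) and 3 higher (0.50%) at an unadjusted p under 0.05, where 5.08% and 3.65% of all probe sets were. These p-values use the same estimate of spread that chose the set. By the day 12 arrays alone, 17.8% separated downward and 2.15% upward, where 6.69% and 4.99% of all probe sets did. Of the 249 that fell with age, 66.3% had a higher mean under hyperoxia, with a median of 0.08, and 33 were higher (13.3%) and 8 lower (3.21%). With 1 day 12 array left out, the share of the first set that was lower ran from 69.3% to 79.2%. With the deposited scaling 586 rose and 701 fell with age, and 76.5% of the first were lower and 79.3% of the second higher, where 44.7% and 55.3% of all probe sets were.

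Vessel, photoreceptor and channel genes were among those that rose with age and were lower at day 12. The tight junction gene Ocln rose by 0.83 ± 0.23 with age and read 8.01, 7.52 and 8.19 under hyperoxia against 9.26, 8.90 and 8.48 in room air at day 12. Kcnj14 rose by 2.08 ± 0.30, and Cacng2, an auxiliary subunit of AMPA receptors, by 1.60 ± 0.34. Pdgfrb rose by 1.47 ± 0.27 and Arr3 by 1.14 ± 0.29. Cabp4, a calcium-binding protein of photoreceptor synapses, rose by 1.94 ± 0.21 and at day 12 read 11.14, 11.45 and 11.49 against 11.67, 12.09 and 11.75. Its day 12 difference was -0.48 ± 0.21, a fraction of its rise with age. These examples were chosen after their values were seen.

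**Figure D4:**
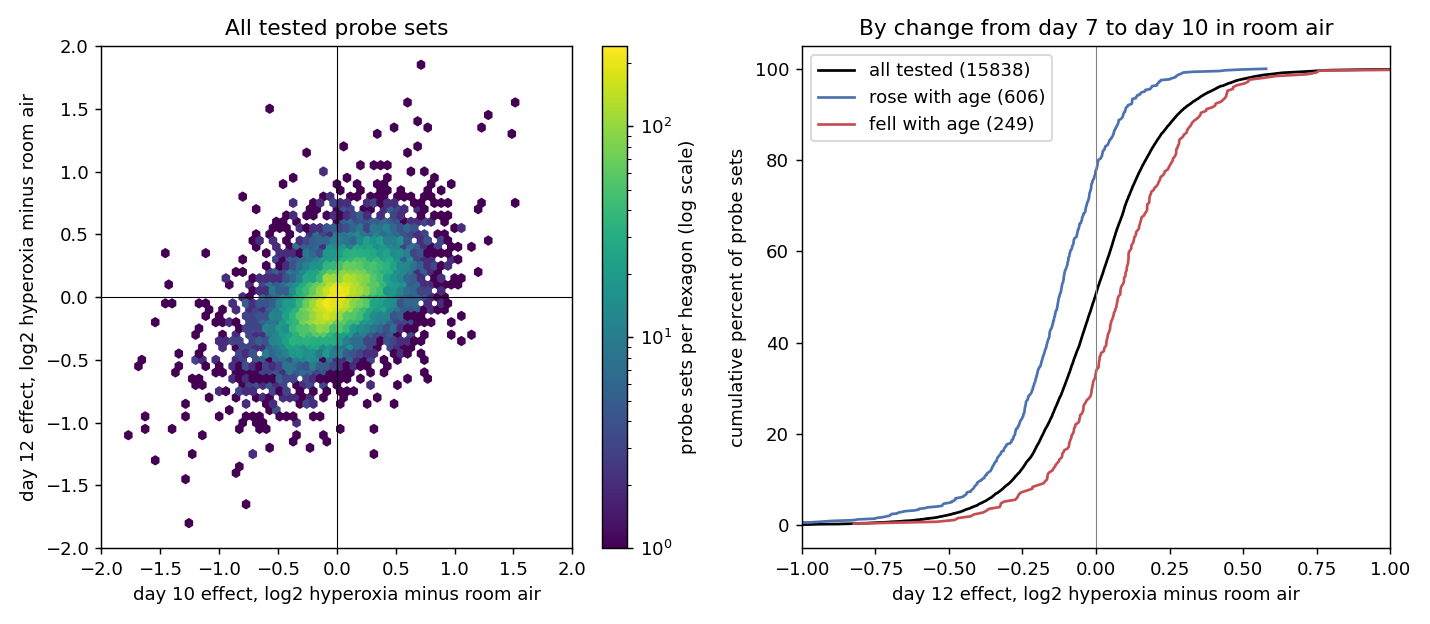
Left, the difference at day 12 (vertical) against that at day 10 (horizontal), both log2 hyperoxia minus room air, for all tested probe sets counted in hexagons on a log colour scale (r = 0.50). Right, the cumulative percent of probe sets (vertical) by day 12 difference (horizontal) for all 15838, for the 606 that rose and for the 249 that fell from day 7 to day 10 in room air: the curve of the 606 crosses 0 at 77.7% and that of all probe sets at 50.8%.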

How the data were processed

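The deposited table held linear intensities of 22690 probe sets on 24 arrays, scaled by the authors to a common mean after trimming 2% at each end, as tested on the values. Which software made them is not given in the sources used here. The arrays were quantile normalized, values under the 20th percentile (a signal of 137.4, 7.10 on the log2 scale) were raised to it, controls were dropped, and probe sets whose mean lay under the 30th percentile were removed. This left 15838 probe sets for 9266 genes with a single symbol, with 0.349% of values at the floor. Of all probe sets 20380 had 1 symbol in the platform annotation, 691 several and 1555 none, and the latter were not named.

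Contrasts of the 8 group means of log2 values were fitted in limma 3.58.1 (R 4.3.3) with 16 residual and 3.55 prior degrees of freedom, and p-values were adjusted by Benjamini-Hochberg over all tested probe sets. A list holds 1 probe set per gene, the brightest, and lists overlap. Called probe sets were named, then the 15 largest differences each way among those with an unadjusted p under 0.01 and arrays that did not overlap, then 4 members of each list by lowest p. Other genes were named after their values were seen. The members and lists were chosen with earlier results of these data known.

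Same-numbered arrays at day 12 deviated together (correlations 0.45, 0.23 and 0.39), so the numbers may pair the samples there, as judged from the data only. The main fit did not pair arrays, so its SEs and p-values leave any such pairing out. With the number as a block within each day, 14 endothelial genes were lower and 2 higher at an unadjusted p under 0.05. Over all probe sets these shares were 5.99% and 3.9%. In the main fit 10 endothelial genes were lower and 1 was higher. The same-numbered correlations were 0.03, 0.29 and 0.09 at day 7, -0.31, -0.02 and -0.01 at day 8, and -0.10, -0.03 and 0.16 at day 10. The number of arrays limits the precision. Alternatives were the scaling, floor, filter, block, prior, tissue scores as covariates, 1 probe set per gene, the day 12 arrays alone, and each array left out. Plots were made in Python 3.11.15 with matplotlib 3.10.9.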

Additional observations from a re-analysis of the deposited data

How the results depend on the processing

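The count of 2 calls at day 12 became 0 with the deposited scaling, the floor at the 30th percentile, no filter, a filter at the 50th percentile, the robust prior or only the 6 arrays of day 12 (875 past an unadjusted p of 0.05, against 1383). It became 1 with the floor at the 10th percentile, 4 with the replicate block and 1 with the replicate block within each day, which was added after seeing the data. It was 2 with lens and pigment scores as covariates and ranged from 0 to 6 with 1 array left out. Naalad2 and Sema4b kept their direction in all of these except the filter at the 50th percentile, which left them out. The cause was not tested. For day 12 against the mean of the shorter exposures, 0 calls became 1 with the replicate block and ranged from 0 to 1 with 1 array left out. Against day 7, 0 became 1 without the filter and 1 with the block. Against day 8, 0 became 1 with the deposited scaling, 6 without the filter and 2 with the block. Against day 10, 0 became 1 without the filter. In room air, 855 calls from day 7 to day 10 became 1287 with the deposited scaling.

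Of 1642 values of named genes under alternatives, 1602 kept direction and side of the threshold. Of the rest, 18 reversed, all of genes near 0. With the deposited scaling Pdk1 was at 0.10 and Tek at 0.0667. With 1 array left out, the lowest and highest values were -0.0124 and 0.11 for Vegfa, -0.10 and 0.0212 for Bnip3, -0.11 and 0.16 for Ak4, -0.0678 and 0.26 for Vegfa by its other probe set, -0.0801 and 0.11 for Pdk1, -0.0175 and 0.13 for Pdk1 by its other probe set, -0.22 and 0.11 for Kdr, -0.26 and 0.0315 for Flt1 and -0.16 and 0.0181 for Tek. Of 240 list medians under alternatives, 222 stayed within 1 SD.

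Differences of dim probe sets near the floor are understated, and so can be their spread. The 3 arrays a group limit the precision.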
